A study of Mus musculus with 34 samples.

Results

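The loci of the 3 chains of the interleukin-2 (IL-2) receptor, Il2ra, Il2rb and Il2rg, were examined for binding of BATF, Foxp3 and IRF4 in mouse CD4 T cells. A peak belonged to a locus when the nearest protein-coding gene body, at a distance of 0 bp for a peak inside it and at most 100 kb otherwise, was one of these genes. Of 41612 peaks in 4 deposited peak tables, 24 met this rule, with 14 at Il2ra, 8 at Il2rb and 2 at Il2rg. They comprised 7 of 16109 peaks in the first BATF table, 4 of 9973 in the second BATF table, 7 of 6396 in the Foxp3 table and 6 of 9134 in the IRF4 table. All 24 were tested, since no filter on low values was applied.

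The IL-2 receptor is built from the alpha chain (CD25, from Il2ra), which raises the affinity for IL-2, the beta chain (CD122, from Il2rb) and the common gamma chain (CD132, from Il2rg). The beta and gamma chains carry the signal through the kinases Jak1 and Jak3 to the transcription factor STAT5. The beta chain also serves IL-15, and the gamma chain serves IL-4, IL-7, IL-9, IL-15 and IL-21. Regulatory T (Treg) cells make little IL-2 themselves, carry high levels of the alpha chain and depend on IL-2 from other T cells. Foxp3 is the lineage factor of Treg cells, BATF is a basic leucine zipper factor of the AP-1 family, and IRF4, of the interferon regulatory factors, can bind DNA jointly with BATF.

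Binding was read by ChIP-seq (chromatin immunoprecipitation and sequencing) in bulk sorted cells, with spleen and lymph nodes of C57BL6/J mice as the tissue. All cells came from mice in which human CD2 (hCD2) on the surface marks Foxp3 expression. Treg cells were gated as CD4+hCD2+ and conventional T (Tconv) cells as CD4+hCD2- from Foxp3-IRES-hCD2 mice, with 2 BATF libraries and 4 IRF4 libraries of each. Foxp3 was measured, with 2 libraries per group, in Treg cells of Foxp3-IRES-hCD2.Batf-/- mice and of wild-type Foxp3-IRES-hCD2 mice. It was also measured in effector Treg cells (CCR7loCD62Llo within the hCD2+ gate) and central Treg cells (CCR7hiCD62LhiCD44lo) of wild-type mice, again with 2 libraries each. R397W Treg cells carried the alleles Foxp3R397W-IRES-hCD2 and Foxp3-IRES-GFP, their controls carried Foxp3WT-IRES-hCD2 and Foxp3-IRES-GFP, and both were gated as CD4+hCD2+GFP- for BATF, with 2 libraries each. Cells expressing GFP from the other allele were thus left out of both groups, although the mice hold them. No gate used CD25, no Cre driver is named for Batf, and the labels give no ages and do not say whether libraries came from separate animals. The p-values therefore measure the spread between these libraries, which may be technical.

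A library of the first BATF table held 1377509 to 2280493 reads in its peaks, one of the second 144319 to 1009580, a Foxp3 library 164740 to 393310 and an IRF4 library 162580 to 336969. Values are normalised reads per peak, that is, reads in the peak times 1 scale factor per library, as the authors deposited them. The BATF peak within Foxp3 averaged 112 ± 4.70 normalised reads in Treg cells, against 1.74 ± 2.46 in Tconv cells (SD, n = 2 each). The IRF4 peak there averaged 88.5 ± 7.88 in Treg cells and 1.18 ± 1.36 in Tconv cells (SD, n = 4 each). Binding at this gene does not measure the purity of the sorted cells, which was not tested. BATF was not measured in the Batf knockout cells, so the deletion itself was not checked here.

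The 24 peaks fell on 13 sites, 8 at Il2ra, 4 at Il2rb and 1 at Il2rg, where peaks overlapping by at least 1 bp were joined. The Il2ra gene body spans chr2:11642792-11693194 (mm10, plus strand). Its start site was covered by a BATF peak (chr2:11642483-11642883), a Foxp3 peak (chr2:11642534-11642934) and an IRF4 peak (chr2:11642473-11642873), centred 0.1 kb upstream. All 3 factors also met 8.9 kb downstream, inside the gene, with BATF at chr2:11651500-11651900, Foxp3 at chr2:11651528-11651928 and IRF4 at chr2:11651584-11651984. Foxp3 (chr2:11653356-11653756) and IRF4 (chr2:11653328-11653728) shared the site at 10.8 kb, and BATF (chr2:11655208-11655608) and Foxp3 (chr2:11655222-11655622) that at 12.6 kb. Foxp3 alone was listed 6.9 kb upstream (chr2:11635689-11636089) and 15.0 and 19.5 kb downstream (chr2:11657614-11658014 and chr2:11662057-11662457), and IRF4 alone 21.4 kb downstream (chr2:11663982-11664382).

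The Il2rb gene body spans chr15:78479256-78511621, and the tables used give no strand for it, so its sites are placed from the lower-coordinate end. BATF peaks of both tables lay 3.5 kb outside that end (chr15:78475557-78475957 in the first table) and 14.5 kb inside it (chr15:78493574-78493974). A BATF peak of the first table (chr15:78494991-78495391) and an IRF4 peak (chr15:78494968-78495368) shared the site at 15.9 kb. A BATF peak of the second table (chr15:78510132-78510532) and an IRF4 peak (chr15:78510123-78510523) shared the site at 31.1 kb. Their centres lay 1289 and 1298 bp inside the upper-coordinate end of the gene body, so this site is near that end. The Il2rg gene body spans chrX:101264385-101268255 (minus strand), and its single site covered the start site with a peak of each BATF table (chrX:101268079-101268479 in the first). Exons and introns were not annotated in the tables used, so a position is given only as inside or outside the gene body. No Foxp3 peak was assigned to Il2rb or Il2rg and no IRF4 peak to Il2rg. The second BATF table listed no peak within 100 kb of Il2ra.

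**Figure D1:**
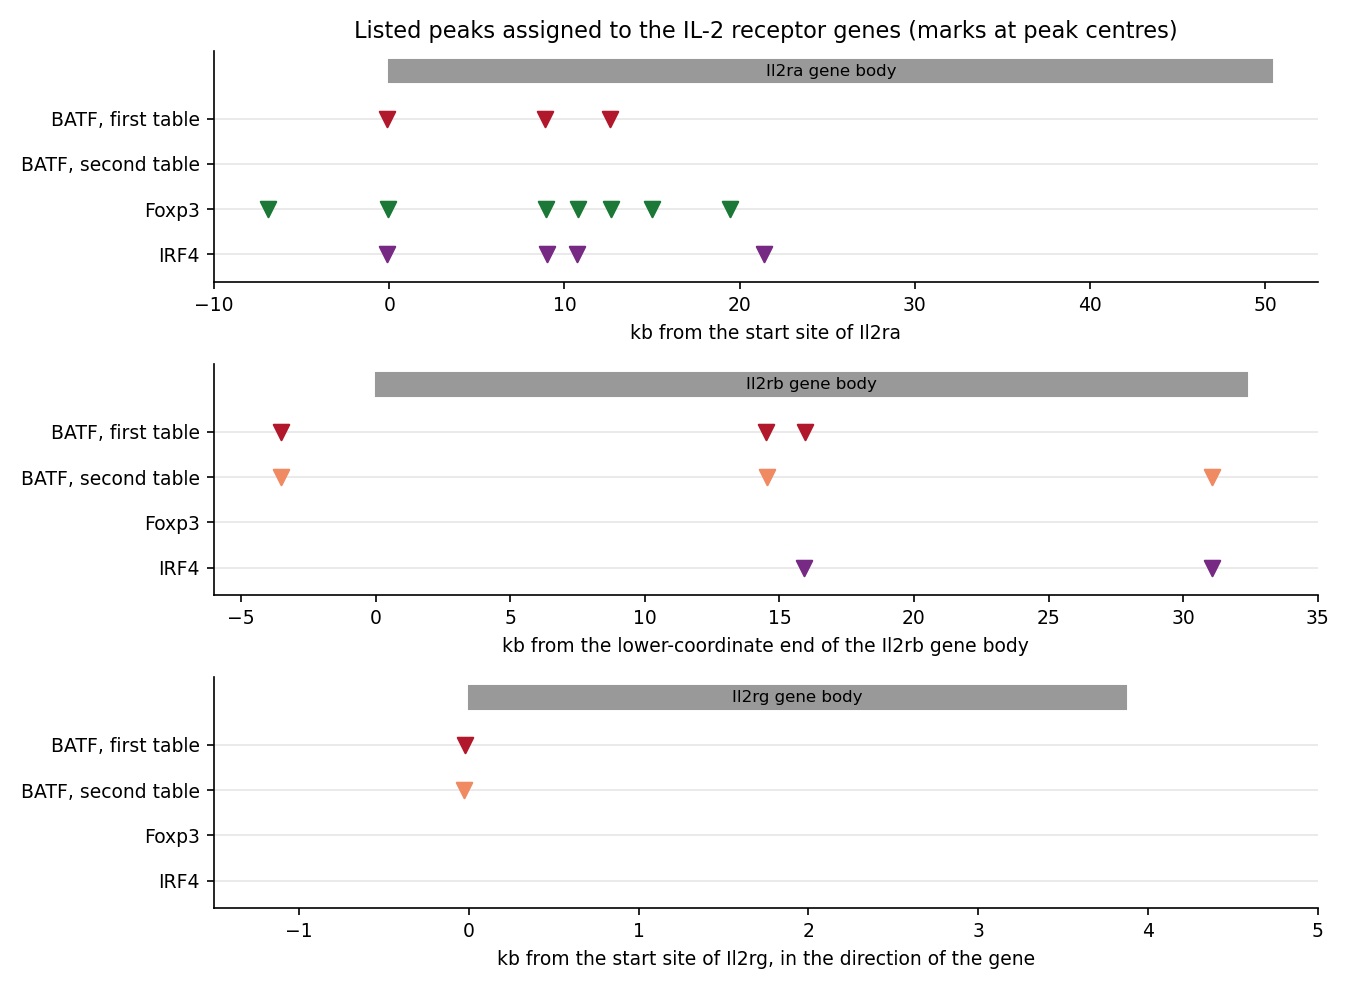
Each triangle marks the centre of 1 listed peak, in rows by table, against distance in kb from the start site (Il2ra, Il2rg) or from the lower-coordinate end of the gene body (Il2rb). Grey bars are gene bodies. Foxp3 has 7 marks at Il2ra and none at the other genes, and both Il2rg marks are BATF peaks at the start site.

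The 250 bases before the start site are shown for Il2ra and Il2rg because binding was listed directly over them. Both are credited to RefSeq (GRCm38.p6, the assembly of mm10), 5′ to 3′ in the direction of the gene, and RefSeq promoter entries were found for 2 of the 3 genes. Capitals mark a match to one of the motifs searched. The Il2ra stretch is chr2:11642542-11642791 on the plus strand, and all 250 of its bases lay under the BATF, Foxp3 and IRF4 peaks of the start site. The Il2rg stretch is chrX:101268256-101268505 on the minus strand, with 224 bases under the BATF peak of the first table and 229 under that of the second.
Il2ra: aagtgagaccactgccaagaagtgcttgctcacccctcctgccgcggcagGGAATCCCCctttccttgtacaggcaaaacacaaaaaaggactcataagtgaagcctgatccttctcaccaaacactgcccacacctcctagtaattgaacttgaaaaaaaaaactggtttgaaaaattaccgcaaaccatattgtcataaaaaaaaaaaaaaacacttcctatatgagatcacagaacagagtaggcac
Il2rg: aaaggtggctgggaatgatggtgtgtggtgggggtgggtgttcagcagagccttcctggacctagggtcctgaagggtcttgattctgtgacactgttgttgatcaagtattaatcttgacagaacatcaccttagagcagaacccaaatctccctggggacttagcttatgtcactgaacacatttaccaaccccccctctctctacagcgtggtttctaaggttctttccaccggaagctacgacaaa
The motifs were searched on both strands as exact letters. They were AP-1 (TGANTCA), IRF (GAAANNGAA), STAT (TTCNNNGAA), forkhead (TGTTTAC), NF-kappaB (GGGNNTTCC), Ets (ACAGGAA) and an AP-1 match with the IRF core GAAA within 8 bases, which overlaps the AP-1 motif by construction. The Il2ra stretch held 1 NF-kappaB match, GGAATCCCC on the strand shown, beginning at position -200 counted from the start site, and the Il2rg stretch held none of the 7. Among 32851 promoters of the same length, 4.98% held an NF-kappaB match, 6.75% AP-1, 7.13% IRF, 7.02% STAT, 3.17% forkhead, 7.20% Ets and 1.37% the joint AP-1 and IRF arrangement. A stretch without a match says only that these letters are not in this window.

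The levels of the sites differed within each table. By mean value over all libraries, the Foxp3 peak at 10.8 kb of Il2ra was above 98.2% of all Foxp3 peaks and the IRF4 peak at the same site above 90.8% of all IRF4 peaks. The IRF4 peak at 15.9 kb of Il2rb was above 95.4%, and the BATF peak at that site above 81.5% of the first table's peaks. The remaining 20 peaks ranged from the percentile of 19.5, for the IRF4 peak at 21.4 kb of Il2ra, to 83.1, for the Foxp3 peak at 8.9 kb.

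BATF binding at the alpha and beta chain genes was higher in Treg cells than in Tconv cells, whereas that at the gamma chain gene did not pass the test. All 3 Il2ra peaks and all 3 Il2rb peaks were called higher and none lower, that is, 6 of 7 peaks in the first BATF table. Over all BATF peaks, 14.9% were called higher and 4.79% lower, or 19.7% in either direction. With quantile normalisation 2086 of all BATF peaks were called higher and 1291 lower, against 2395 and 772 with the deposited scaling, and the 6 receptor calls held. The median log2 fold change of the 7 peaks was 1.497, beside -0.03 over all 16109 peaks. Calls rest on limma with an adjusted p under 0.05 over all peaks of the table, and each fold is taken after adding 1 to the values. Since these are bulk cells, a smaller share of cells with a bound site and less binding per cell cannot be told apart.

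At the Il2ra start site, BATF had 153 and 138 normalised reads in the 2 Treg libraries, against 58.1 and 63.6 in the 2 Tconv libraries. This is a 2.37-fold difference (log2 fold change 1.25, SE 0.23, limma adjusted p = 0.000799). At 8.9 kb, inside the gene, BATF had 202 and 191 normalised reads in Treg cells, against 49.9 and 54.98 in Tconv cells. Both groups were tight and far apart here, and the 3.70-fold difference was the largest of the 3 Il2ra peaks (log2 fold change 1.89, SE 0.22, limma adjusted p = 1.44e-05). At 12.6 kb BATF had 105 and 136 normalised reads in Treg cells, against 29.0 and 59.3 in Tconv cells, a wider spread in both groups. The 2.82-fold difference passed the test (log2 fold change 1.497, SE 0.32, limma adjusted p = 0.0026).

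The largest differences of the receptor genes were inside Il2rb, which encodes the signalling chain shared with IL-15. At 15.9 kb BATF had 243 and 283 normalised reads in Treg cells, against 30.2 and 41.4 in Tconv cells. The 7.24-fold difference (log2 fold change 2.86, SE 0.24, limma adjusted p = 7.11e-07) exceeded that of 96.2% of all BATF peaks. At 14.5 kb BATF had 96.4 and 82.4 normalised reads in Treg cells, against 8.13 and 13.6 in Tconv cells, so the Tconv level was low. This gave a 7.82-fold difference (log2 fold change 2.97, SE 0.42, limma adjusted p = 7.03e-05). Outside the gene, at 3.5 kb from its lower end, BATF had 79.8 and 93.7 normalised reads in Treg cells, against 39.5 and 32.1 in Tconv cells. The 2.39-fold difference passed the test (log2 fold change 1.26, SE 0.31, limma adjusted p = 0.0065), but without the second Treg library the adjusted p was 0.0757, with a log2 fold change of 1.14.

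At the start site of Il2rg, the shared gamma chain, BATF had 79.8 and 57.6 normalised reads in Treg cells, against 45.3 and 67.8 in Tconv cells. The groups overlapped, and the log2 fold change of 0.29 did not pass the test (SE 0.31, limma adjusted p = 0.609). Its 95% interval ran from -0.37 to 0.95, so a fold between 0.771 and 1.93 was within the error. In the other 6 peaks both Treg libraries were above both Tconv libraries, which held for 28.5% of all BATF peaks.

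**Figure D2:**
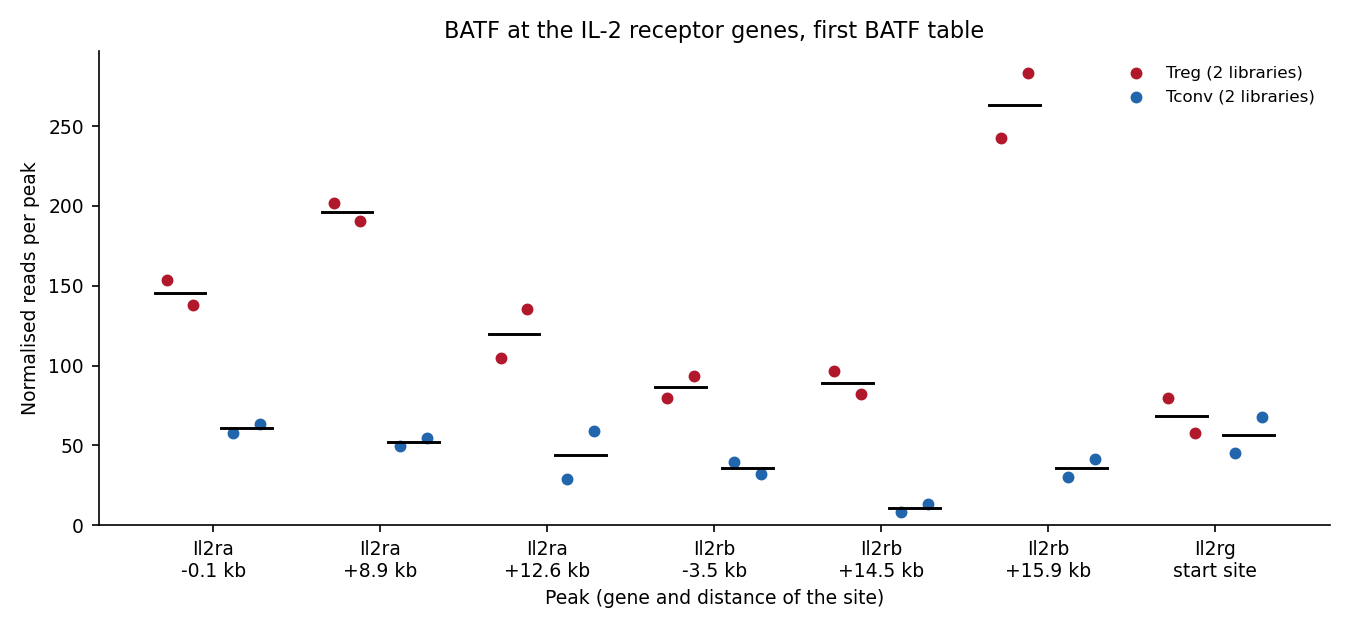
Normalised reads per peak (y axis, linear, from 0) at the 7 BATF peaks of the receptor genes in the first BATF table, with 1 point per library and a bar at the group mean. Treg libraries lie above Tconv libraries at 6 peaks, and the groups mix at the Il2rg start site.

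The Treg and Tconv libraries of BATF were also listed in the second table, over its own peaks. These are the same libraries, with recovered reads equal in 402 intervals common to both tables, except in 1 interval of 1 Tconv library. The values are therefore a second count and not independent support. In a comparison added after the values were seen, 3 of 4 receptor peaks were called higher in Treg cells, against 19.8% of all peaks of that table called higher and 4.83% lower, or 24.7% either way (with quantile normalisation 1381 peaks higher and 689 lower, against 1977 and 482). The site at 31.1 kb of Il2rb, which the first table did not list, had 42.9 and 26.3 normalised BATF reads in Treg cells, against 4.93 and 5.27 in Tconv cells. The 5.67-fold difference passed the test (log2 fold change 2.50, SE 0.49, limma adjusted p = 0.000682). The sites at 14.5 kb and 3.5 kb gave log2 fold changes of 2.81 and 1.09, and the Il2rg peak 0.19 (limma adjusted p = 0.774). The call at 3.5 kb outside Il2rb was lost without any 1 of the 4 libraries (limma adjusted p from 0.0564 to 0.126).

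IRF4 binding was higher in Treg cells at 1 site of Il2ra and 1 site of Il2rb, and did not pass the test at the other 4 IRF4 peaks. Thus 2 of 6 peaks were called higher and 0 lower, where 15.8% of all IRF4 peaks were called higher and 8.39% lower, or 24.2% either way. The median log2 fold change of the 6 peaks was 0.29, beside -0.05 over all IRF4 peaks.

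Inside Il2ra at 8.9 kb, IRF4 had 30.4, 25.4, 44.9 and 47.7 normalised reads in the 4 Treg libraries, against 14.5, 17.4, 18.9 and 16.0 in the 4 Tconv libraries. Every Treg library was above every Tconv library, which held for 15.0% of all IRF4 peaks, with a 2.09-fold difference (log2 fold change 1.06, SE 0.30, limma adjusted p = 0.0111). Inside Il2rb at 15.9 kb, the site with the largest BATF levels, IRF4 had 90.3, 98.3, 80.1 and 54.6 normalised reads in Treg cells, against 52.5, 30.6, 51.4 and 27.4 in Tconv cells. The groups did not overlap, though the lowest Treg library was close to the highest Tconv library, and the 2.01-fold difference passed the test (log2 fold change 1.00, SE 0.26, limma adjusted p = 0.00569). The Il2ra call did not hold without Treg library 3 (limma adjusted p = 0.0539) or without Treg library 4 (limma adjusted p = 0.0602), each time with the same direction.

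At the Il2ra start site, where BATF was higher in Treg cells, IRF4 had 23.0, 33.3, 48.1 and 37.5 normalised reads in Treg cells, against 13.7, 34.1, 38.8 and 30.9 in Tconv cells. These groups overlapped (log2 fold change 0.31, 95% interval -0.34 to 0.97, limma adjusted p = 0.528). At 10.8 kb, the site with the highest IRF4 level in the gene, the 4 Treg libraries ranged from 33.3 to 66.5 and the 4 Tconv libraries from 31.5 to 60.5. The log2 fold change there was 0.10 with a 95% interval from -0.47 to 0.67. The sites at 21.4 kb of Il2ra and 31.1 kb of Il2rb were low in both cell types, averaging 15.0 ± 4.80 and 14.9 ± 7.27 normalised reads in Treg cells and 13.9 ± 10.1 and 14.2 ± 9.53 in Tconv cells (SD, n = 4 each). Their log2 fold changes were 0.27 and 0.22, with adjusted p-values in limma of 0.726 and 0.802.

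**Figure D3:**
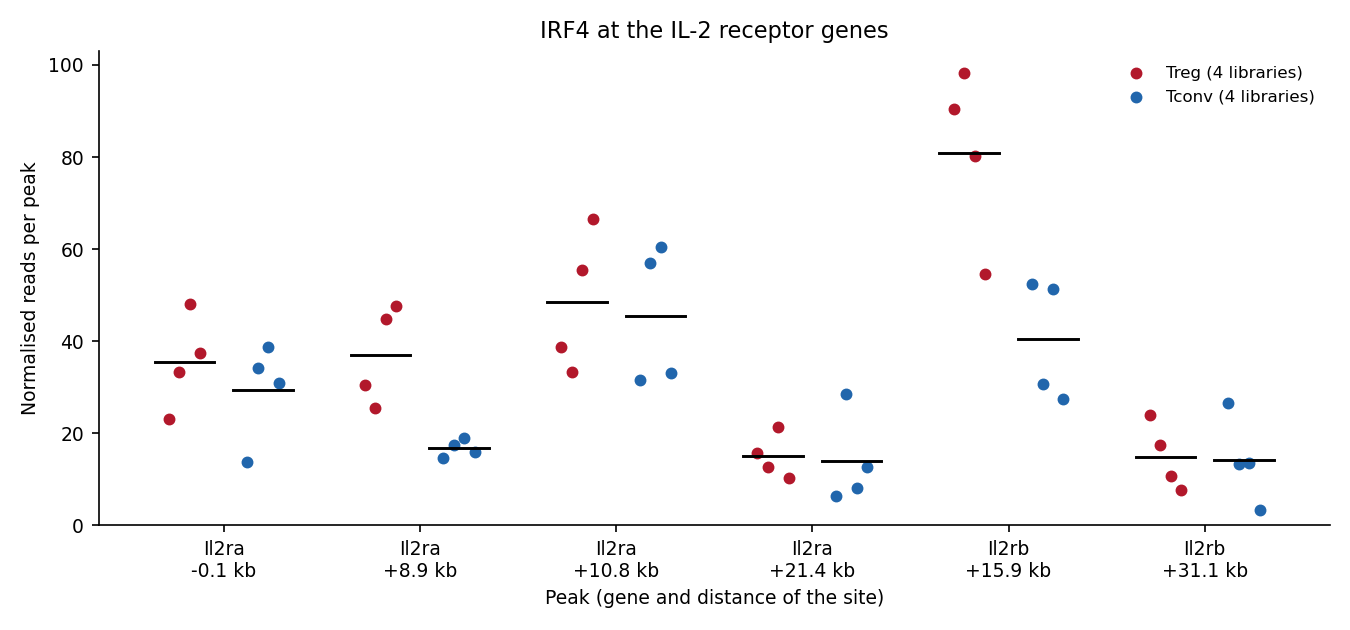
Normalised reads per peak (y axis, linear, from 0) at the 6 IRF4 peaks of Il2ra and Il2rb, with 1 point per library and a bar at the group mean. The 4 Treg and 4 Tconv libraries separate at 8.9 kb of Il2ra and 15.9 kb of Il2rb and overlap at the other sites.

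Binding at marker genes of other cell types was read beside these results. In the BATF table, 24 of 28 peaks at 5 Treg marker genes (Foxp3, Ikzf2, Ctla4, Nrp1, Tnfrsf18) passed as higher and 0 as lower, with summed values of 3832 to 4142 normalised reads in Treg libraries and 921 to 964 in Tconv libraries. Of 3 peaks at B cell marker genes 1 was higher, with sums of 178 to 201 in Treg and 107 to 146 in Tconv libraries. At myeloid marker genes 2 of 5 peaks were higher, with sums of 616 to 623 in Treg and 383 to 412 in Tconv libraries. At CD8 and NK marker genes 1 of 9 peaks was higher and 2 lower, with sums of 430.3 to 449 in Treg and 479 to 509.9 in Tconv libraries. Among the marker genes, Ms4a1, Ebf1, Lyz2, Csf1r, Itgam, Cd8a, Gzma and Ncr1 had no listed BATF peak. For IRF4 the counts were 10 of 13 higher at Treg marker genes, 1 of 3 at B cell, 0 of 4 at myeloid and 0 of 1 at CD8 and NK marker genes. IRF4 sums were 1252 to 1309 in Treg and 358 to 677 in Tconv libraries at Treg marker genes, 44.3 to 82.5 in Treg and 39.7 to 64.0 in Tconv libraries at B cell, 83.3 to 124 in Treg and 44.2 to 89.7 in Tconv libraries at myeloid, and 14.3 to 24.7 in Treg and 6.32 to 18.3 in Tconv libraries at CD8 and NK marker genes. Binding near a marker gene is not its expression, and the part of other cell types in the results was not tested.

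Foxp3 was listed at Il2ra alone among the 3 genes, and none of its 7 peaks there passed the test between Batf knockout and wild-type Treg cells. Of all Foxp3 peaks, 0.547% were called higher and 3.91% lower in the knockout, or 4.46% either way. The DESeq2 and edgeR fits that follow left out wild-type library 1, so they differ from limma in libraries as well as in tool. DESeq2 called 0 of all Foxp3 peaks higher and 53 lower, against 35 and 250 by limma. By limma, 0 of the 7 peaks had an unadjusted p under 0.05. By edgeR 0 were called and 1 had an unadjusted p under 0.05, and by DESeq2 both counts were 0. The 95% intervals of the 7 log2 fold changes lay between -0.61 and 1.29, and their median was 0.11, beside 0.05 over all Foxp3 peaks.

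The strongest Foxp3 site, at 10.8 kb inside Il2ra, had 175 and 124 normalised reads in knockout Treg cells, against 168 and 151 in wild-type Treg cells. The groups overlapped (log2 fold change -0.12, 95% interval -0.61 to 0.37, limma adjusted p = 0.866). Foxp3 shared 3 sites with BATF, the factor that the knockout lacks. Of these, the start site had 51.8 and 45.0 normalised reads in knockout cells, against 39.4 and 37.6 in wild-type cells (log2 fold change 0.32, SE 0.28, limma adjusted p = 0.617). The site at 8.9 kb had 75.2 and 84.9 in knockout cells, against 62.7 and 87.7 in wild-type cells (log2 fold change 0.11, limma adjusted p = 0.898). The site at 12.6 kb had 82.3 and 65.6 in knockout cells, against 57.6 and 43.4 in wild-type cells (log2 fold change 0.55, SE 0.28, limma adjusted p = 0.328). Both knockout libraries were above both wild-type libraries at the start site and at 12.6 kb, as was the case for 22.8% of all Foxp3 peaks. The groups overlapped at 8.9 kb. At 8.9 kb the log2 fold change was -0.14 in DESeq2 and -0.19 in edgeR. Both fits left out wild-type library 1, at 62.7, so the reference was only the library at 87.7.

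The other 3 Foxp3 sites were listed by neither BATF table. At 6.9 kb upstream Foxp3 had 19.3 and 34.7 normalised reads in knockout cells, against 15.2 and 20.0 in wild-type cells (log2 fold change 0.55, SE 0.36, limma adjusted p = 0.482). The groups overlapped there, as they did at 15.0 kb, with 44.7 and 50.2 in knockout cells against 42.5 and 53.5 in wild-type cells, and at 19.5 kb, with 20.3 and 29.6 against 25.3 and 21.7. Log2 fold changes at these 2 sites were -0.01 and 0.06. At Treg marker genes, for comparison, 3 of 26 Foxp3 peaks were lower and 0 higher in the knockout, with sums of 1015 to 1049 normalised reads in knockout and 1286 to 1318 in wild-type libraries. B cell and myeloid marker genes had no listed Foxp3 peak. At CD8 and NK marker genes 0 of 2 peaks were called, with sums of 134 to 158 in knockout and 109 to 142 in wild-type libraries.

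Between effector and central Treg cells, Foxp3 binding at Il2ra differed at the 2 outermost Foxp3 sites, both lower in effector cells, and did not pass the test at the 5 sites between them. Thus 2 of 7 peaks were called lower and 0 higher, where 10.8% of all Foxp3 peaks were called lower and 15% higher, or 25.7% either way. The count at Il2ra was close to that last share. The median log2 fold change of the 7 peaks was -0.22, beside -0.01 over all Foxp3 peaks.

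At 6.9 kb upstream of the start site, Foxp3 had 25.3 and 14.4 normalised reads in effector Treg cells, against 55.9 and 52.6 in central Treg cells. The fold of effector over central was 0.365 (log2 fold change -1.46, SE 0.36, limma adjusted p = 0.00357). At 19.5 kb inside the gene, Foxp3 had 21.5 and 21.3 normalised reads in effector cells, against 47.9 and 40.8 in central cells. The fold was 0.496 (log2 fold change -1.01, SE 0.32, limma adjusted p = 0.0216). Leaving out 1 library weakened both Il2ra calls: the upstream site had an adjusted p of 0.0952 without effector library 2 (log2 fold change -1.07), and the site at 19.5 kb lost its call without any 1 of the 4 libraries (limma adjusted p from 0.0691 to 0.174). DESeq2 did not call the site at 19.5 kb either (adjusted p = 0.163).

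Foxp3 at the strongest site, 10.8 kb, had 79.8 and 82.5 normalised reads in effector cells, against 91.9 and 95.6 in central cells (log2 fold change -0.21, 95% interval -0.70 to 0.28, limma adjusted p = 0.598). The start site had 36.7 and 33.5 in effector cells, against 34.6 and 33.4 in central cells, and these libraries overlapped (log2 fold change 0.04, 95% interval -0.53 to 0.61, limma adjusted p = 0.938). The site at 8.9 kb had 26.6 and 25.4 in effector cells, against 28.0 and 31.9 in central cells. The sites at 12.6 and 15.0 kb averaged 37.3 ± 2.64 and 46.2 ± 0.933 in effector cells and 47.2 ± 14.0 and 54.1 ± 6.32 in central cells (SD, n = 2 each). Their log2 fold changes, with that at 8.9 kb, lay between -0.30 and -0.19 and none passed the test. Both effector libraries were below both central libraries at 5 of the 7 sites, as was the case for 32.6% of all Foxp3 peaks. At Treg marker genes 7 of 26 Foxp3 peaks passed as higher in effector cells and 1 as lower, with sums of 1138 to 1321 in effector and 851 to 913 in central libraries. At CD8 and NK marker genes 1 of 2 was higher, with sums of 78.6 to 101 in effector and 52.6 to 54.6 in central libraries, and the part of other cell types was not tested.

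**Figure D4:**
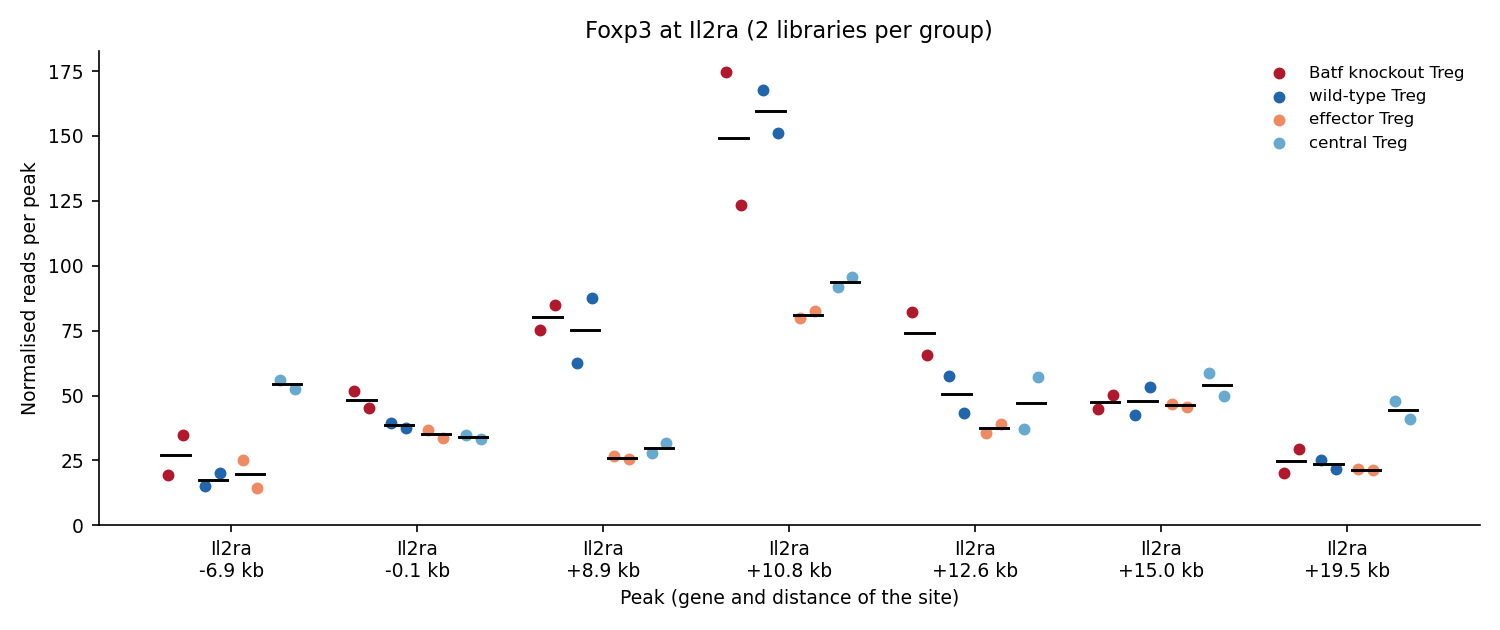
Normalised Foxp3 reads per peak (y axis, linear, from 0) at the 7 Il2ra sites in Batf knockout, wild-type, effector and central Treg cells, with 1 point per library and a bar at the group mean. Effector libraries lie below central libraries at 5 of the 7 sites, with the largest fold differences at -6.9 and 19.5 kb. The site at 10.8 kb is the highest in all 8 libraries.

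BATF binding in R397W Treg cells, whose Foxp3 carries a substitution in its forkhead domain, was tested at 3 Il2rb peaks and 1 Il2rg peak. None of the 4 passed the test, where 0.612% of all peaks of the second BATF table were called higher and 8.04% lower in R397W cells, or 8.65% either way. By limma 1 peak had an unadjusted p under 0.05, by edgeR 0 were called and 1 had an unadjusted p under 0.05, and by DESeq2 both counts were 0. BATF at Il2ra could not be compared, since this table listed no peak there.

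The peak at 31.1 kb of Il2rb had 13.7 and 15.2 normalised BATF reads in R397W Treg cells, against 44.7 and 34.6 in control Treg cells. Both R397W libraries were below both controls, as was the case for 28.8% of all peaks of the table, and the fold was 0.383 (log2 fold change -1.39, SE 0.50, 95% interval -2.44 to -0.33, unadjusted p = 0.013, limma adjusted p = 0.101). The smallest adjusted p was 0.0769 by edgeR and 0.415 by DESeq2. One control library held the fewest reads of the table, 144319, so that 1 read in it counted as 3.46 normalised reads.

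The 3 other peaks overlapped between the groups. At 3.5 kb outside Il2rb, BATF had 56.4 and 43.0 normalised reads in R397W cells, against 47.8 and 48.4 in controls (log2 fold change 0.03, 95% interval -0.69 to 0.76). At 14.5 kb BATF had 29.1 and 45.0 in R397W cells, against 50.9 and 27.7 in controls (log2 fold change -0.05, 95% interval -0.96 to 0.86). The Il2rg start site had 54.7 and 39.5 in R397W cells, against 37.0 and 58.8 in controls (log2 fold change -0.01, 95% interval -0.79 to 0.78). Limma adjusted p-values for these were 0.965, 0.958 and 0.995. At Treg marker genes, 4 of 8 BATF peaks were lower and 0 higher in R397W cells, with sums of 245 to 299 normalised reads in R397W libraries and 760.4 to 844 in control libraries. At myeloid marker genes 1 of 3 was lower, with sums of 31.9 to 32.5 in R397W and 83.001 to 92.5 in control libraries. At B cell marker genes 0 of 2 and at CD8 and NK marker genes 0 of 6 were called, and the part of other cell types was not tested.

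**Figure D5:**
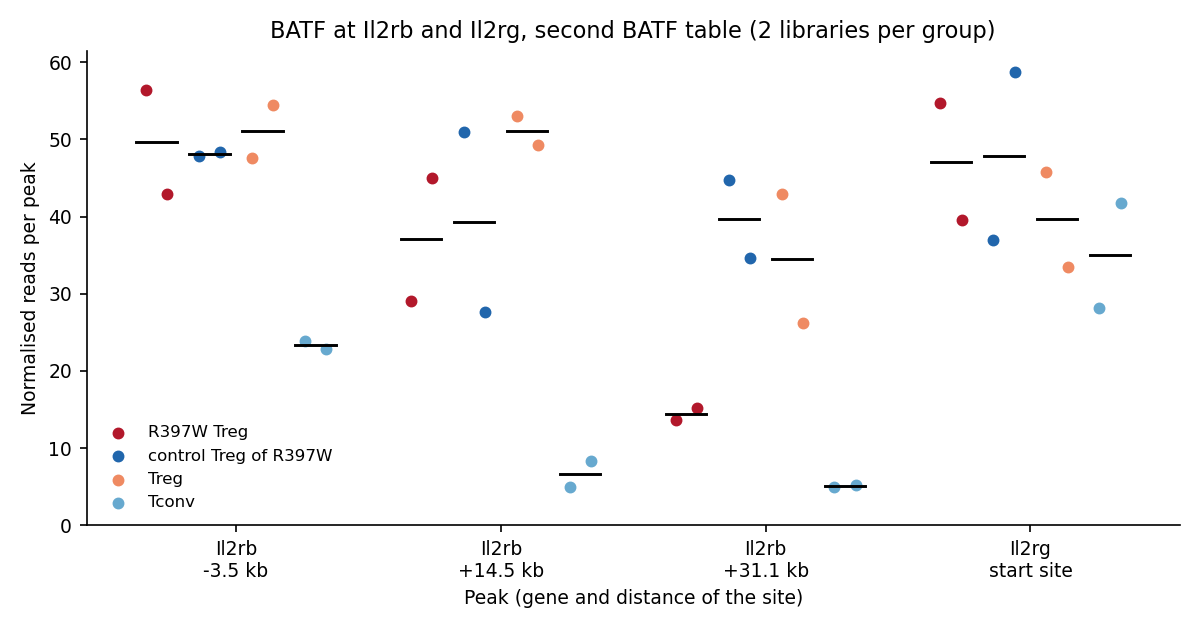
Normalised BATF reads per peak (y axis, linear, from 0) at 3 Il2rb peaks and 1 Il2rg peak in R397W Treg, their control Treg, and the Treg and Tconv libraries listed in the same table, with 1 point per library and a bar at the group mean. At 31.1 kb the R397W libraries, at 13.7 and 15.2, lie below the controls and above the Tconv libraries.

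Across the 8 libraries of the second BATF table, the level at 31.1 kb of Il2rb averaged 14.5 ± 1.11 normalised reads in R397W Treg, 39.7 ± 7.18 in control Treg, 34.6 ± 11.7 in wild-type Treg and 5.10 ± 0.243 in Tconv libraries (SD, n = 2 each). The R397W Treg mean thus stood between those of Tconv and the other Treg groups at this site. R397W was not tested against Tconv, and its difference from control Treg did not pass the test. The wild-type Treg and Tconv libraries were not part of the R397W experiment. At 14.5 kb it was 37.1 ± 11.3 in R397W Treg, 39.3 ± 16.4 in control Treg, 51.1 ± 2.66 in wild-type Treg and 6.64 ± 2.42 in Tconv cells. At the Il2rg start site the 4 groups averaged 47.1 ± 10.8 in R397W Treg, 47.9 ± 15.4 in control Treg, 39.7 ± 8.74 in wild-type Treg and 34.96 ± 9.60 in Tconv cells, within the spread of the libraries.

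How often the factors shared sites at these genes was set beside all peaks. All 3 BATF peaks at Il2ra overlapped a Foxp3 peak and none of those at Il2rb or Il2rg did. Thus 3 of 7 BATF peaks of the first table overlapped Foxp3, where 19.2% of all its peaks did. Of the second table's peaks 0 of 4 did, beside 22.2% of all its peaks. Of the Foxp3 peaks 3 of 7 overlapped a BATF peak of the first table, where 48.2% of all Foxp3 peaks did. Of the IRF4 peaks 3 of 6 overlapped a BATF peak of the first table and 3 of 6 a Foxp3 peak, where 76.0% and 27.9% of all IRF4 peaks did. A BATF peak of the second table was overlapped by 0 of 7 Foxp3 peaks, beside 34.6% of all Foxp3 peaks. The same held for 1 of 6 IRF4 peaks, beside 44.5% of all IRF4 peaks. These counts were the same with a reciprocal overlap of 50%.

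Other genes of the pathway were counted from a list of 32, comprising IL-2 and IL-15, the private chains of other gamma chain receptors, the kinases, STAT and SOCS factors, adaptors, and targets such as Bcl2, Mcl1 and Foxp3. For BATF in Treg against Tconv cells, 28 of these genes had 96 peaks, of which 19 were higher and 1, at Syk, lower. These are 19.8% and 1.04% of the list's peaks, beside 14.9% and 4.79% of all BATF peaks. Cish, an inhibitor of STAT5 signalling that STAT5 itself induces, averaged 202 ± 42.0 normalised reads in Treg cells, against 54.3 ± 2.06 in Tconv cells, at its leading peak (SD, n = 2 each). All 3 Cish peaks were higher in Treg cells, the leading one by a log2 fold change of 1.86 (limma adjusted p = 2.26e-05). Socs2, another STAT5-induced inhibitor, had 82.0 ± 13.4 in Treg cells and 16.3 ± 4.87 in Tconv cells (log2 fold change 2.28, limma adjusted p = 0.000376). Pik3r1, a regulatory subunit of phosphoinositide kinase, had 164 ± 18.4 in Treg cells and 60.01 ± 7.11 in Tconv cells at its leading peak (log2 fold change 1.44, limma adjusted p = 0.000225). Of its 9 peaks 4 were called higher. The peak within Foxp3 had a log2 fold change of 5.73.

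For IRF4, 23 genes of the list had 54 peaks, of which 7 were higher and 7 lower in Treg cells. Each count is 13.0% of the list's peaks, beside 15.8% higher and 8.39% lower over all IRF4 peaks. A peak 26359 bp from Il2, the ligand, averaged 4.10 ± 1.07 normalised reads in Treg cells, against 26.8 ± 13.0 in Tconv cells (n = 4 each). Its log2 fold change was -2.32 (limma adjusted p = 0.000839). Of 3 IRF4 peaks at Bcl2, which encodes a survival factor, 1 was called higher. It averaged 60.1 ± 24.6 in Treg cells and 18.4 ± 7.21 in Tconv cells (log2 fold change 1.66, limma adjusted p = 0.000376). Of 5 Cish peaks 2 were called higher, and the leading one averaged 22.7 ± 5.92 in Treg cells and 3.96 ± 1.71 in Tconv cells (log2 fold change 2.30, limma adjusted p = 0.000795).

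For Foxp3, 15 genes of the list had 46 peaks. Between Batf knockout and wild-type Treg cells 0 were called by limma, beside 4.46% of all Foxp3 peaks. The smallest p was at a Jak1 peak of 45.4 ± 0.492 normalised reads in knockout cells and 22.9 ± 6.62 in wild-type cells (SD, n = 2 each, log2 fold change 0.99, limma adjusted p = 0.0616). Between effector and central Treg cells 2 were higher and 9 lower in effector cells, or 4.35% and 19.6% of the list's peaks, beside 15% and 10.8% of all Foxp3 peaks. A Foxp3 peak 177 bp from Il2 had 46.5 ± 8.44 in effector cells and 7.04 ± 0.533 in central cells (log2 fold change 2.55, limma adjusted p = 2.37e-05). A peak within Jak1, the kinase bound to the beta chain, had 6.86 ± 2.53 in effector cells and 44.8 ± 12.0 in central cells (log2 fold change -2.56, limma adjusted p = 9.41e-05). A peak within Bcl2 had 13.7 ± 5.07 in effector cells and 65.0 ± 7.98 in central cells (log2 fold change -2.20, limma adjusted p = 0.000296).

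For BATF in R397W against control Treg cells, 21 genes had 40 peaks and 0 were called by limma, beside 8.65% of all peaks of the second BATF table. The smallest p was at a peak 47286 bp from Il2, with 11.0 ± 5.94 normalised reads in R397W cells and 40.03 ± 2.08 in controls (SD, n = 2 each, log2 fold change -1.86, adjusted p = 0.0504). The call for the Il2 peak depended on the setting, with adjusted p from 0.0174, with all 8 libraries of the table in 1 fit, to 0.307, without control b. It was 0.049 in edgeR and 0.291 in DESeq2.

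The peaks whose pattern was most like that of the strongest Il2ra peaks were found by the root mean squared difference of centred log2 values over 8 libraries. For the Foxp3 peak at 10.8 kb these were a peak 1021 bp from Skil (0.12) and peaks within Aig1 (0.13) and Igf1r (0.13). The median over 3000 candidate peaks was 0.52. For the IRF4 peak at 10.8 kb they were a peak 81830 bp from Med13l (0.15) and peaks within Fam169b (0.17) and Dnmt3a (0.18). The median over 4326 candidates was 0.62.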

How the data were processed

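The series held 24 ChIP-seq libraries and 10 inputs, and the inputs were left out. The deposited signal is normalised reads per peak, with 1 peak list per table. The software named in the submitters' processing notes is DiffBind 3.12.0, edgeR 3.38.4, MACS2 2.2.7.1 and Bowtie2 2.4.1, with the build mm10. Which step each served is not given in the sources used here. Deposited values were whole multiples of 1 step per library within 0.01, so reads were recovered as value over step. The scale factors lay within 0.884% to 5.14% of TMM factors over the same peaks, by table, so a change common to most peaks would be scaled away. Total depth is unknown.

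Gene bodies came from RefSeq (GRCm38.p6), with a limit of 100000 bp. Coordinates are the deposited ones, with a base of 0 or 1 left unstated. Groups were compared with limma 3.58.1 (R 4.3.3) on log2(value + 1), two-sided, the variance prior following mean level, with Benjamini-Hochberg adjustment over all peaks of a table and a threshold of 0.05. The 8 Foxp3 libraries shared 1 fit. For R397W only the 4 libraries of that experiment entered. Alternatives included edgeR 4.0.16 and DESeq2 1.42.0 on recovered reads. They left out wild-type Foxp3 library 1, although its values too were whole multiples of 1 step (1.01). The wild-type group there thus had 1 library, assumed to vary like the others. Named pathway peaks were up to 4 genes per comparison by smallest p, 1 peak each, and likeness was taken among peaks above the median mean value. Syk was named after its value was seen. The receptor genes, the lists and the tests were chosen with earlier results of these data known. Scripts were tested on simulated data. A marker gene of the lists is not reported here.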

Additional observations from a re-analysis of the deposited data

How the results depend on the processing

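The 6 BATF calls and both IRF4 calls in Treg against Tconv cells held under the alternatives that tested them, other than leaving out 1 library. Among peaks above the 25th percentile, 5 BATF peaks were called, since the one at 14.5 kb of Il2rb lay under that filter and was not tested there, and the Batf knockout and R397W comparisons gave 0 called receptor peaks under every alternative run. The number of IRF4 peaks called higher was 1 to 2 without 1 library. The number of Foxp3 peaks called lower in effector cells was 0 to 1 without 1 library and 1 in DESeq2. For sorted subsets against all wild-type Treg cells, the higher count was 0 in DESeq2, edgeR and quantile normalisation and 0 to 1 without 1 library, and the lower count was 1 in DESeq2 and quantile normalisation. Taking every peak within 100 kb gave 26, 11, 11 and 18 peaks in the first BATF, second BATF, Foxp3 and IRF4 tables, against 7, 4, 7 and 6. The cause of these shifts was not tested.

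Sign changes concerned only peaks that were not called. For R397W, quantile normalisation gave a log2 fold change of 0.11 at 14.5 kb of Il2rb, and the Il2rg value was 0.0594 in DESeq2, 0.0808 in edgeR and 0.14 with quantile normalisation. For the Batf knockout, Il2ra gave -0.14 in DESeq2 and -0.19 in edgeR at 8.9 kb, and 0.00632 with quantile normalisation at 15.0 kb. For the sorted subsets, Il2ra gave 0.0227 with quantile normalisation at the start site, and -0.11 in DESeq2 and -0.13 in edgeR at 15.0 kb. These DESeq2 and edgeR values for Il2ra were obtained without wild-type Foxp3 library 1. IRF4 at 10.8 kb of Il2ra was -0.0332 with quantile normalisation. Without 1 library, the ranges that crossed 0 were -0.000472 to 0.57 for BATF at Il2rg in the first table and -0.0893 to 0.46 in the second. For R397W they were -0.16 to 0.23 at 3.5 kb and -0.48 to 0.38 at 14.5 kb of Il2rb, and -0.33 to 0.32 at Il2rg. For the Batf knockout they were -0.13 to 0.35, -0.36 to 0.13, -0.17 to 0.15 and -0.20 to 0.32 at 8.9, 10.8, 15.0 and 19.5 kb of Il2ra. For effector against central cells they were -0.0224 to 0.11 at the Il2ra start site and -0.60 to 0.000373 at 12.6 kb, and for the sorted subsets -0.0964 to 0.23 at 15.0 kb. For IRF4 they were -0.00433 to 0.50 and -0.0681 to 0.26 at the start site and 10.8 kb of Il2ra, and -0.28 to 0.60 at 31.1 kb of Il2rb.

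Over all peaks, the first BATF table gave 3167 calls and 1771 among peaks above the 25th percentile, which tests fewer peaks. The Batf knockout gave 285 calls, 53 in DESeq2, 9 higher and 165 lower with quantile normalisation, and without 1 library from 108 (wild-type library 2 left out) to 571 (knockout library 1 left out). Effector against central cells gave 1646 calls, 925 in DESeq2 and 1030 to 1174 without 1 library. R397W gave 863 calls, 171 without a trend, 7 higher and 308 lower in DESeq2, 58 higher and 482 lower with quantile normalisation, and from 141 (control b left out) to 650 without 1 library. The second table's Treg against Tconv comparison gave 2459 calls and 1544 to 1850 without 1 library, and sorted subsets 2943 calls, 848 in DESeq2 and 1777 to 2565 without 1 library. Same-numbered libraries deviated together only weakly, with correlations of 0.132, 0.0346, 0.0556 and 0.0520 for IRF4, 0.0882 for BATF, 0.0761 for the knockout and 0.139 for effector against central. All were positive, and IRF4 Treg library 3 correlated best with another number, Tconv library 4 (0.0576). The labels give no shared day or animal, so the numbers were not taken to pair the libraries. With the replicate block, the receptor peaks called were 6 for BATF, 2 for IRF4, 0 for the Batf knockout and 2 for effector against central cells, as without it, and calls over all peaks were 3804 for BATF and 2425 for IRF4, against 3167 and 2208 without it. No paired analysis was possible for R397W, because the numbers of the control columns do not match those of the sample titles.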

Other observations

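Foxp3 at Il2ra was also compared between the Treg subsets sorted on CCR7 and CD62L and all wild-type Treg cells. This comparison was added after the values were seen. Of the 7 Foxp3 peaks 1 was called higher and 2 lower in the sorted subsets, where 19.4% of all Foxp3 peaks were called higher and 26.6% lower, or 46% either way. Calls at Il2ra were thus no more frequent than over all Foxp3 peaks. The DESeq2 and edgeR fits that follow left out wild-type library 1, so they differ from limma in libraries as well as in tool. Over all Foxp3 peaks DESeq2 called 151 higher and 697 lower, against 1241 and 1702 by limma. At 8.9 kb, a site shared with BATF and IRF4, Foxp3 had 26.6 and 25.4 normalised reads in effector and 28.0 and 31.9 in central Treg cells, against 62.7 and 87.7 in all wild-type Treg cells. All 4 sorted libraries were below both others, as was the case for 25.7% of all Foxp3 peaks (log2 fold change -1.38, SE 0.24, limma adjusted p = 7.02e-05). This call held under every alternative run, with adjusted p from 9.68e-06 to 0.00913. At 10.8 kb the sorted subsets averaged 87.5 ± 7.52 (SD, n = 4) and all wild-type Treg cells 160 ± 11.8 (SD, n = 2), with a log2 fold change of -0.86 (SE 0.21, limma adjusted p = 0.00184). That call was lost in DESeq2 (adjusted p = 0.0962) and with quantile normalisation (adjusted p = 0.232). At 6.9 kb upstream the sorted subsets were unlike each other, with a mean of 19.9 in effector and 54.3 in central Treg cells. Together they averaged 37.1 ± 20.4 (SD, n = 4) and all wild-type Treg cells 17.6 ± 3.45 (SD, n = 2), and the groups overlapped (log2 fold change 0.86, limma adjusted p = 0.0284). This Il2ra call was lost in DESeq2, edgeR and quantile normalisation, and without any 1 library other than effector library 2. The other 4 sites had log2 fold changes between -0.26 and 0.38 and did not pass the test. Sorting, the subsets and any difference between the experiments cannot be told apart, since no library of all wild-type Treg cells is labelled as made with the sorted ones.

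The receptor loci had further peaks within 100 kb that lay nearer to another gene. For Il2rb there were 10 such BATF peaks of the first table, 3 Foxp3 peaks and 7 IRF4 peaks, and 5 of the 10 were nearest to Rac2. For Il2ra there were 4 BATF and 3 IRF4 peaks, and 0 Foxp3 peaks. Of the 7 Foxp3 peaks within 100 kb of Il2ra, all were nearest to Il2ra itself.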
